A study of Homo sapiens with 4 samples.

Results

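The antioxidant and glutathione defence genes described here are 49 human genes for enzymes that remove superoxide and peroxides, for the thioredoxin and glutathione systems, for the ferritin chains, and for the regulator NFE2L2 with its sensor KEAP1. They were taken by name, and all 49 had a gene identifier, against 22148 background genes in each GO table. HepG2 and Huh7 cells, both established lines from liver cancer, were sequenced before treatment (groups A and C) and after SDT (groups B and D). Group B and group D had received targeted nanobubbles loaded with the sonosensitizer HMME and with lonidamine (LND), a drug that acts on energy metabolism, and were exposed to low-frequency ultrasound, whereas group A and group C were the same lines without it. Each of the 4 groups was 1 library of total RNA depleted of ribosomal RNA, so no value has a replicate error and no test between groups was made. Ultrasound alone and nanobubbles alone were not analysed here, and the parts of the treatment cannot be told apart.

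The values were lists of genes. A gene was counted as listed when the GO table of a comparison (B vs. A for HepG2 cells, D vs. C for Huh7 cells) named its identifier under at least 1 term, which means that the authors had called its mRNA differentially expressed between those 2 libraries. The tables used here gave no expression level and no direction. A listed gene may thus have been higher or lower after SDT, and may have been weakly expressed in both libraries. A gene that was not listed may have been unchanged, too weakly expressed to be called, not tested, or called without standing under a GO term. The KEGG tables named 17 genes for B vs. A and 12 for D vs. C that the GO tables did not, and none of these made a further member listed.

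SDT relies on a sensitizer that releases reactive oxygen species in the ultrasound field, and the genes described here encode the main cellular defence against these species. Superoxide dismutases convert superoxide into hydrogen peroxide, which catalase splits into water and oxygen. Glutathione peroxidases and peroxiredoxins reduce peroxides, mostly with electrons that come from NADPH by way of glutathione or thioredoxin. Glutathione transferases attach glutathione to reactive compounds, a leading task of the liver, and the transcription factor NRF2 (gene NFE2L2), held back by KEAP1, drives many of these genes under oxidative stress.

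In HepG2 cells, 9 of the 49 members (18.4%) were listed in group B vs. A, beside 21.6% of all background genes. In Huh7 cells, 13 of 49 (26.5%) were listed in group D vs. C, beside 19.7% of all background genes. Both counts lie within a few genes of these shares, and no difference from the background was tested. Of the members, 5 were listed in both cell lines (10.2%, against 10.3% of all genes). Without the 12 members that have near-identical copies, 3 of 37 were listed in both. Of the 49 members, 4 were listed in HepG2 and not in Huh7 cells (8.16%, against 11.3%) and 8 in Huh7 and not in HepG2 cells (16.3%, against 9.43%). The 5 shared members were 55.6% of the HepG2 members and 38.5% of the Huh7 members, where the shared genes among all listed genes were 47.7% and 52.2%. The remaining 32 members (65.3%, against 69.0% of all genes) were listed in neither line. Whether a member's change differed between the lines was not tested, since a gene listed in 1 line can fall just short of a call in the other.

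The members listed in both lines were TXNIP, GCLM, GSTO2, FTH1 and FTL. SOD2, TXNRD2, GSTA4 and GSTM4 were listed in HepG2 and not in Huh7 cells. SOD3, GPX2, GPX3, TXNRD1, SRXN1, GCLC, GGT1 and GSTM1 were listed in Huh7 and not in HepG2 cells. Of the 11 enzyme classes, 6 had a listed member, and the 5 classes without one hold 1 to 6 genes each, where 69.0% of all genes were listed in neither line.

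**Figure D1:**
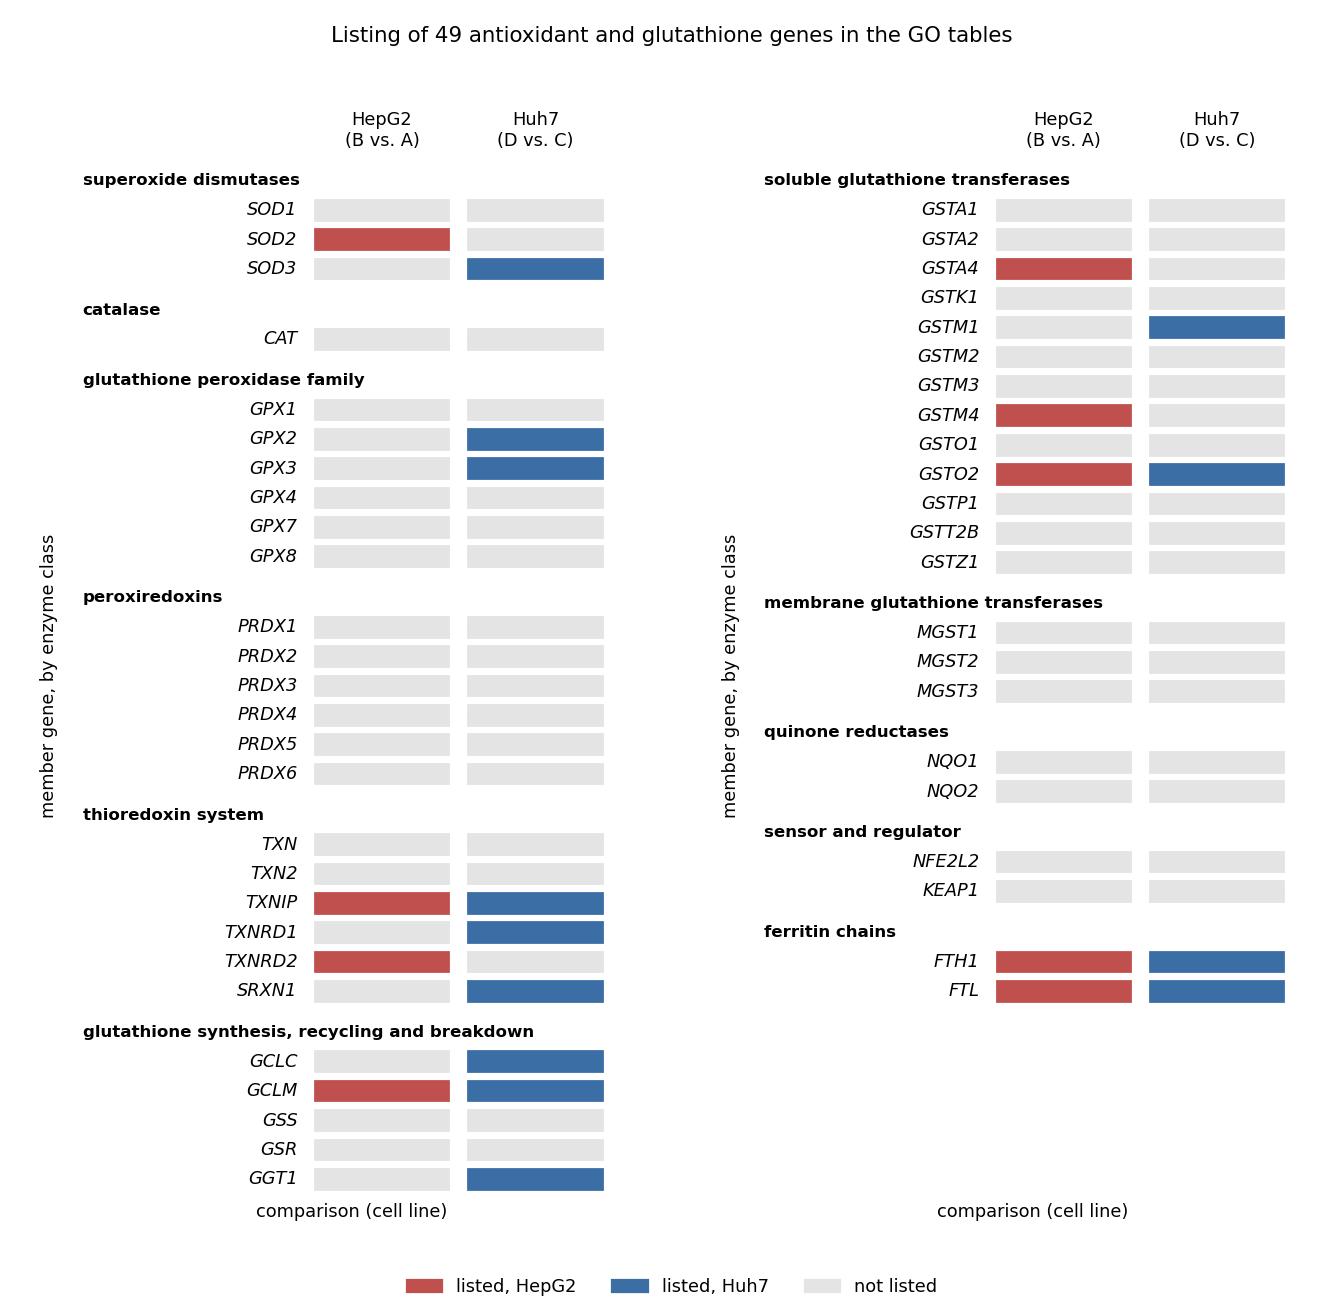
Each of the 49 members is drawn as a row under its enzyme class, with 1 cell for HepG2 cells (group B vs. A, red) and 1 for Huh7 cells (group D vs. C, blue); a filled cell is a listed gene and a grey cell is a gene not listed. The 9 red cells and 13 blue cells fall in 6 of the 11 classes, while the peroxiredoxins and catalase are grey throughout.

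Of the 3 superoxide dismutases, a different one was listed in each line, beside 21.6% (HepG2) and 19.7% (Huh7) of all background genes. SOD2, the manganese enzyme of the mitochondrial matrix, was listed in HepG2 cells. SOD3, the enzyme secreted to the cell surface and matrix, was listed in Huh7 cells. SOD1, the abundant copper and zinc enzyme of the cytosol, was listed in neither. The term superoxide dismutase activity, with 5 background genes, held 1 listed gene in each line, which was SOD2 in HepG2 cells and SOD3 in Huh7 cells. The same pair stood under removal of superoxide radicals, where 6 of 19 background genes were listed in HepG2 and 3 of 19 in Huh7 cells.

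Hydrogen peroxide is removed by catalase, the peroxiredoxins and the glutathione peroxidases. CAT, the catalase of peroxisomes, was listed in neither line. None of the 6 peroxiredoxins (PRDX1, PRDX2, PRDX3, PRDX4, PRDX5 and PRDX6), which reduce peroxides, most of them with thioredoxin and PRDX6 with glutathione, was listed in either line. Of the 6 members from the glutathione peroxidase family, GPX2 (the gut and liver form) and GPX3 (the secreted plasma form) were listed in Huh7 cells. None of the 6 was listed in HepG2 cells. Over all background genes, 21.6% were listed in HepG2 and 19.7% in Huh7 cells. GPX4, which reduces lipid peroxides in membranes and restrains ferroptosis, was listed in neither line, nor were GPX1, GPX7 and GPX8. GPX1 is recorded as a polymorphic pseudogene in GENCODE release 29, and every listed gene that this release holds is protein-coding, so its absence from the tables cannot be read as a missing change. The other 48 members are protein-coding there.

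Glutathione peroxidase activity, with 24 background genes, held 3 listed genes in each line, which were GPX2, GPX3 and ALOX5AP in Huh7 cells and no member in HepG2 cells. The wider term peroxidase activity held 13 listed genes in HepG2 and 8 in Huh7 cells out of 50 background genes. No member was among the 13 genes of HepG2 cells, and GPX2 and GPX3 were the 2 members among the 8 genes of Huh7 cells. Peroxiredoxin activity, with 8 background genes, held SESN1 alone in HepG2 cells and had no row for Huh7 cells. Thioredoxin peroxidase activity had no row in either table, and in these tables every row has at least 1 listed gene.

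The thioredoxin system had 2 of 6 members listed in HepG2 and 3 of 6 in Huh7 cells, beside 21.6% and 19.7% of all background genes. TXNIP, which binds thioredoxin and blocks it, was listed in both lines. The 2 thioredoxin reductases among the members split by line, with TXNRD2, the mitochondrial enzyme, in HepG2 cells and TXNRD1, the cytosolic enzyme, in Huh7 cells. SRXN1, which restores overoxidized peroxiredoxins, was listed in Huh7 cells. The thioredoxins themselves, TXN of the cytosol and TXN2 of mitochondria, were listed in neither line. SRXN1 is uncertain, because 15.4% of the 75-base stretches of its transcripts occur in no other gene, and the rest are shared with the overlapping gene model AL121758.1.

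In glutathione synthesis, the listed genes belonged to the first and rate-limiting step. GCLM, the modifier subunit of glutamate-cysteine ligase, was listed in both lines, and GCLC, the catalytic subunit of the same enzyme, was listed in Huh7 cells. GSS, which adds glycine in the second step, and GSR, which reduces oxidized glutathione with NADPH, were listed in neither line. GGT1, the surface enzyme that starts glutathione breakdown, was listed in Huh7 cells, but it has near-copies, and 75.9% of its 75-base stretches occur in no other gene. The class thus had 1 of 5 members listed in HepG2 and 3 of 5 in Huh7 cells. Over all background genes, the shares listed were 21.6% and 19.7%. In Huh7 cells, GCLC, GCLM and GGT1 stood together under cysteine metabolic process, where 9 of 13 background genes were listed in that line and 7 of 13 in HepG2 cells, and under glutathione biosynthetic process, where 5 of 14 were listed in each line.

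Of the 13 soluble glutathione transferases, 3 were listed in HepG2 and 2 in Huh7 cells, beside 21.6% and 19.7% of all background genes. GSTO2, an omega-class enzyme that also reduces dehydroascorbate, was listed in both lines. GSTA4, which acts on the lipid peroxidation product 4-hydroxynonenal, and GSTM4, a mu-class enzyme, were listed in HepG2 cells. GSTM1, a mu-class enzyme whose gene is deleted in many people, was listed in Huh7 cells. GSTA1, GSTA2, GSTK1, GSTM2, GSTM3, GSTO1, GSTP1, GSTT2B and GSTZ1 were listed in neither line. The membrane enzymes MGST1, MGST2 and MGST3 were not listed in either line.

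The mu-class genes lie side by side on chromosome 1, in the order GSTM4, GSTM2, GSTM1, GSTM5 and GSTM3. GSTM4 and GSTM5 were listed in HepG2 cells and GSTM1, which lies between them, in Huh7 cells. The alpha-class genes on chromosome 6 have the order GSTA2, GSTA1, GSTA5, GSTA3 and GSTA4, of which GSTA5 was listed in Huh7 cells and GSTA4 in HepG2 cells. The mu-class calls are uncertain because these genes share sequence. Of the 75-base stretches of GSTM1, 63.1% occur in no other gene, against 89.9% for GSTM4, and GSTM2 shares the most with each.

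The quinone reductases NQO1 and NQO2, of which NQO1 is a classical NRF2 target, were listed in neither line. The regulator NFE2L2 and its sensor KEAP1 were not listed in either line. FTH1 and FTL, the heavy and light chains of ferritin, which store iron and keep it from generating radicals, were both listed in both lines. Ferritin was the 1 class in which every member was listed in both lines, beside 10.3% of all background genes. Both chains are among the 12 members with near-identical copies, without which 3 of 37 members were listed in both lines. FTH1 and FTL have processed pseudogenes in the genome, and 86.3% and 90.5% of their 75-base stretches occur in no other gene.

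The promoters of the members were searched for the core of the antioxidant response element, TGACNNNGC, which NRF2 binds with small MAF proteins. RefSeq promoter sequences (GRCh38.p14, 250 bases before to 50 bases after each start) were held for 40 of the 49 members, and both strands were read. The motif was found for 10 of these 40 genes (25%), against 16.1% of 27305 genes with an entry and 13.3% of 35116 promoters. It was found for 6 of the 16 listed members with an entry (37.5%) and for 4 of the 24 members listed in neither line (16.7%). By line, it was found for 2 of 8 members listed in HepG2 (25%) and 5 of 12 listed in Huh7 cells (41.7%). These differences rest on few genes and were not tested. The members SOD1, PRDX1, PRDX6, TXN2, GSS, GSR, GSTT2B, MGST2 and FTH1 had no entry.

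The 6 listed members with the motif were GPX2, TXNRD1, GGT1 and GSTM1, listed in Huh7 cells, GSTA4, listed in HepG2 cells, and GCLM, listed in both. Their sites are printed to show the motif in its place in these promoters. Each line gives the motif in capitals with 10 bases on each side, on the strand on which it reads 5′ to 3′. TXNRD1 has 3 sites near 2 annotated starts.
GPX2, chr14:64942849-64942877, plus strand: atccccaggaTGACTTAGCaaaaacaggt
TXNRD1 site 1, chr12:104215670-104215698, plus strand: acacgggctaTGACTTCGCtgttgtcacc
TXNRD1 site 2, chr12:104215761-104215789, minus strand: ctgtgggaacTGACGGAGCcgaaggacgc
TXNRD1 site 3, chr12:104286920-104286948, minus strand: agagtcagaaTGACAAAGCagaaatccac
GCLM, chr1:93909446-93909474, plus strand: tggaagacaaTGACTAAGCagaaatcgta
GGT1, chr22:24603154-24603182, minus strand: ttccctgctgTGACCCAGCtcctccttcc
GSTA4, chr6:52995275-52995303, minus strand: ccgggaccgcTGACCTGGCgctttgtgcg
GSTM1, chr1:109687642-109687670, plus strand: ctgggcgcccTGACTTCGCtcccggaacc

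All of these sites begin before the annotated start of the gene, from 8 bases before it at the nearest TXNRD1 site to 165 bases before it in GSTM1. The site of GCLM begins 34 bases before the start and that of GPX2 begins 122 bases before it. Among members listed in neither line, GSTO1, GSTP1, MGST1 and KEAP1 held the motif. The AP-1 site TGACTCA was found in GSTP1 alone (against 6.05% of genes and 4.95% of promoters), where it overlaps the antioxidant response core. The E-box CACGTG was found in GPX1, PRDX3, PRDX4 and GSTO2 (4 of 40 genes, 10%, against 8.77% of genes and 7.26% of promoters), and GSTO2 is the listed gene among these 4. A match describes the letters in the window and does not show binding. Sequence outside the window was not searched, so a gene without a match may still hold the motif further away.

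The broader terms that the members share had listed genes in both lines, from members and from other genes. Antioxidant activity, with 89 background genes, held 24 listed genes in HepG2 (27.0%) and 19 in Huh7 cells (21.3%), of which 10 were the same genes. The members among the 24 genes were SOD2, TXNRD2 and GSTO2, and those among the 19 genes were SOD3, GPX2, GPX3, TXNRD1, SRXN1 and GSTO2. More genes of the term were therefore listed in HepG2 cells, while more of its members were listed in Huh7 cells. Response to oxidative stress, with 441 background genes, held 123 listed genes in HepG2 (27.9%) and 100 in Huh7 cells (22.7%). SOD2, TXNIP, TXNRD2 and GCLM were its 4 members in HepG2 cells, and its 8 members in Huh7 cells were SOD3, GPX2, GPX3, TXNIP, TXNRD1, SRXN1, GCLC and GCLM.

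Glutathione metabolic process had 11 of 51 background genes listed in each line (21.6%), of which 5 were the same genes. Its members were GCLM, GSTA4 and GSTM4 in HepG2 cells and GCLC, GCLM, GGT1 and GSTM1 in Huh7 cells. The KEGG pathway Glutathione metabolism held 9 listed genes in HepG2 and 10 in Huh7 cells of 49 background genes. Its members were GCLM, GSTA4, GSTM4 and GSTO2 in HepG2 cells and GPX2, GPX3, GCLC, GCLM, GSTM1 and GSTO2 in Huh7 cells. Among the listed members, GCLM and GSTO2 were thus the 2 that this pathway had in common between the lines. Cell redox homeostasis had 9 of 68 background genes listed in HepG2 cells (13.2%), with the member TXNRD2, and 15 of 68 in Huh7 cells (22.1%), with TXNRD1 and GCLC.

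Xenobiotic metabolic process stood furthest apart between the lines among the GO terms looked up with at least 100 background genes. It held 26 of 112 background genes in HepG2 (23.2%) and 43 of 112 in Huh7 cells (38.4%), and each line had 3 members there. These were GSTA4, GSTM4 and GSTO2 in HepG2 cells and GGT1, GSTM1 and GSTO2 in Huh7 cells. Cellular iron ion homeostasis held 15 of 64 background genes in HepG2 and 18 in Huh7 cells, and its members were FTH1 and FTL in both. The KEGG pathway Mineral absorption also held both ferritin chains in both lines, with 17 and 13 listed genes of 51.

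**Figure D2:**
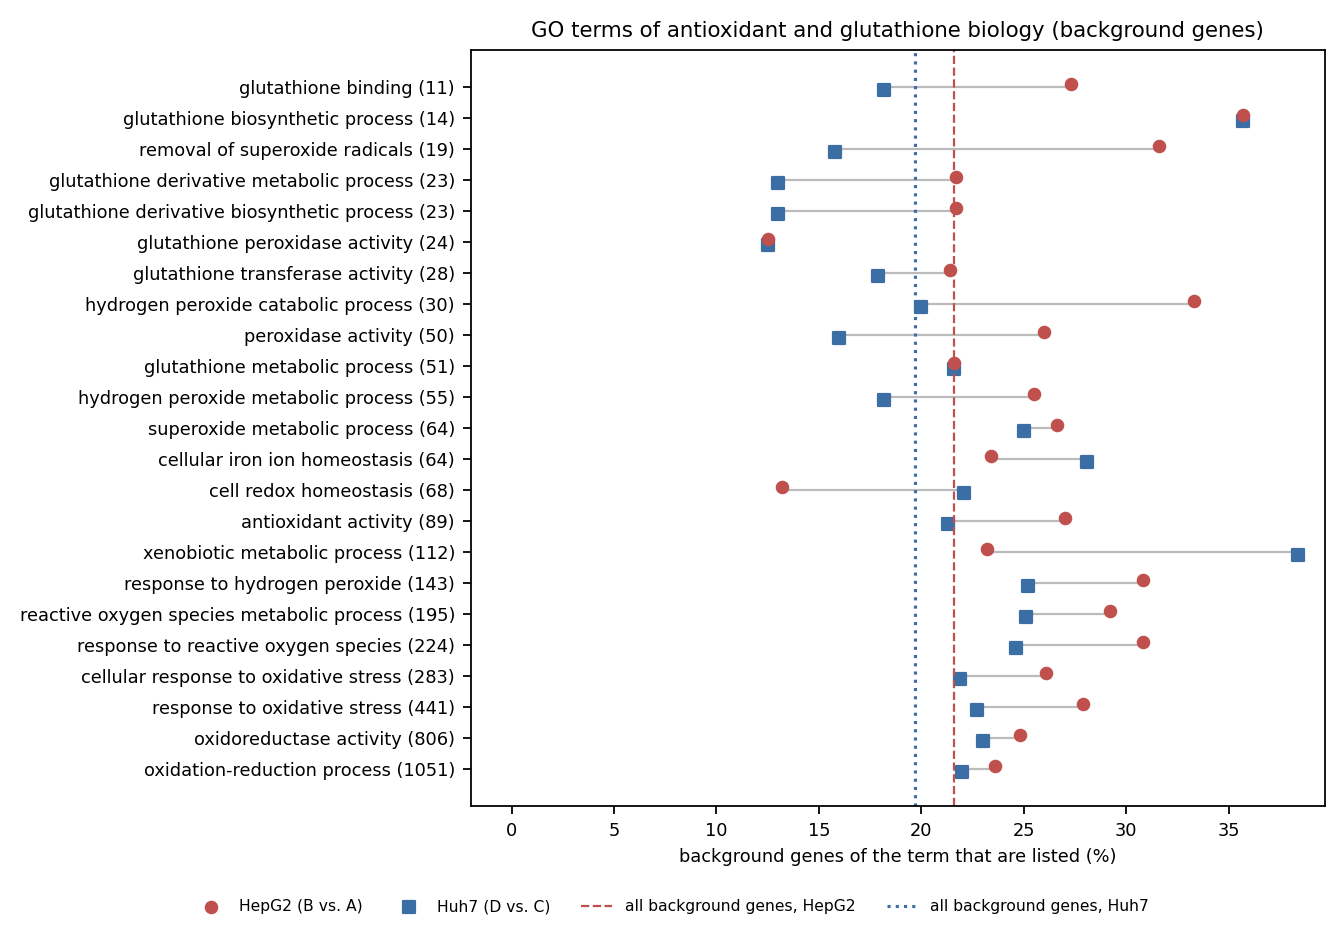
For each GO term of antioxidant and glutathione biology with at least 10 background genes (their number in brackets), the horizontal axis gives the percentage of background genes listed in HepG2 cells (red circles) and Huh7 cells (blue squares); the vertical lines are the 21.6% and 19.7% of all background genes. Glutathione metabolic process lies at 21.6% in both lines, and xenobiotic metabolic process lies at 23.2% in HepG2 and 38.4% in Huh7 cells.

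Among the cell compartment terms looked up, those for mitochondrion, extracellular region, cytosol, nucleus and cytoplasm held listed members of both lines. The mitochondrion term held SOD2, TXNIP and TXNRD2 in HepG2 cells and TXNIP and TXNRD1 in Huh7 cells, where 18.6% and 16.6% of its 1734 background genes were listed. The extracellular region term held 5 members in HepG2 cells (SOD2, GSTM4, GSTO2, FTH1 and FTL) and 8 in the other line, where 22.7% and 22.8% of its 5050 background genes were listed. Of the narrower terms, the mitochondrial matrix term held SOD2 and TXNRD2 in HepG2 cells and no member in Huh7 cells, where 15.7% and 14.7% of its 491 background genes were listed. The narrower extracellular space term held no member in HepG2 cells and SOD3, GPX3 and GGT1 in Huh7 cells, where 22.5% and 24.1% of its 2135 background genes were listed. The cytosol term held 8 of the 9 listed members in HepG2 cells and 10 of the 13 in Huh7 cells, where 20.4% and 18.4% of its 5462 background genes were listed. The nucleus term held 2 members in HepG2 and 4 in Huh7 cells, where 21.1% and 18.3% of its 7950 background genes were listed. The cytoplasm term held 9 members in HepG2 and 11 in Huh7 cells, where 22.6% and 20.5% of its 12479 background genes were listed. These terms were looked up after the members' listing was known, and the differences between the lines were not tested.

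The number of GO terms that named a listed member ran from 34 for GPX2 to 347 for GCLC. It was the same in both tables for each shared member, such as 201 terms for TXNIP and 210 for GCLM. The number reflects how fully a gene is annotated and not the size of its change.

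Genes that work with the members were counted next, without a test. The shares of all background genes beside each of these lists are 21.6% in HepG2 and 19.7% in Huh7 cells. Of 13 partners, repressors and relatives of NRF2, 5 (38.5%) were listed in HepG2 and 7 (53.8%) in Huh7 cells. NFE2L2 and KEAP1 themselves were listed in neither line. The relatives were NFE2, listed in HepG2 cells, NFE2L3, listed in Huh7 cells, and NFE2L1, listed in neither. The 4 shared genes were MAFF, MAFG and MAFK, the small MAF partners, and SQSTM1, which binds KEAP1. The repressors BACH1 and BACH2 were listed in Huh7 and not in HepG2 cells, whereas BTRC, CUL3, GSK3B and RBX1 of the same list were listed in neither line. Of 21 further NRF2 target genes, 3 (14.3%) were listed in HepG2 and 7 (33.3%) in Huh7 cells, and HMOX1, the inducible heme oxygenase, and SQSTM1 were listed in both.

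The supply of NADPH, on which GSR and the thioredoxin reductases depend, was counted in the same way. Of 16 genes, 2 were listed in HepG2 (IDH1 and MTHFD1, 12.5%) and none in Huh7 cells. The genes for glutathione breakdown and cysteine supply had 8 of 17 listed in each line (47.1%), and CBS, CHAC1, CTH, GGCT and SLC3A2 were shared. CHAC1 degrades glutathione, GGCT acts on gamma-glutamyl amino acids, CBS and CTH make cysteine from homocysteine, and SLC3A2 is the partner chain of the cystine carrier. That carrier, SLC7A11, was listed in Huh7 cells, the line in which GCLC was also listed. Of 21 glutaredoxins and thioredoxin relatives, GLRX was listed in HepG2 cells (4.76%) and TXNDC2 and TXNDC5 in Huh7 cells (9.52%).

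The other glutathione transferases had 4 of 10 genes listed in each line (40%), with ALOX5AP and GSTCD shared, and GSTT1 had no identifier. The other peroxide and peroxidase genes had 4 of 10 listed in HepG2 and 3 in Huh7 cells. The oxidases that produce reactive oxygen had 8 of 19 listed in HepG2 (42.1%) and 7 in Huh7 cells (36.8%). Selenoproteins and their synthesis had 7 of 22 listed in each line (31.8%), with DIO2, DIO3, SELENOK, SELENOP and SELENOS shared. The selenoproteins among the members, GPX1, GPX2, GPX3, GPX4, TXNRD1 and TXNRD2, had GPX2, GPX3 and TXNRD1 listed in Huh7 cells and TXNRD2 in HepG2 cells.

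Iron handling, the setting of the ferritin chains, had 4 of 18 genes listed in HepG2 (22.2%) and 5 in Huh7 cells (27.8%), with CP, HMOX1 and STEAP3 shared. The ferroptosis regulators had 6 of 15 genes listed in HepG2 (40%) and 7 in Huh7 cells (46.7%), with DHODH, SAT1 and SLC3A2 shared, whereas the member GPX4 was listed in neither line. Methionine sulfoxide repair and other redox protection had 5 of 16 listed in HepG2 (31.2%) and 3 in Huh7 cells (18.8%), with SESN2 shared. Over all 187 related genes with an identifier, 54 were listed in HepG2 (28.9%), 55 in Huh7 cells (29.4%) and 29 in both (15.5%). The members' own shares were 18.4%, 26.5% and 10.2%, and those of all background genes were 21.6%, 19.7% and 10.3%.

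**Figure D3:**
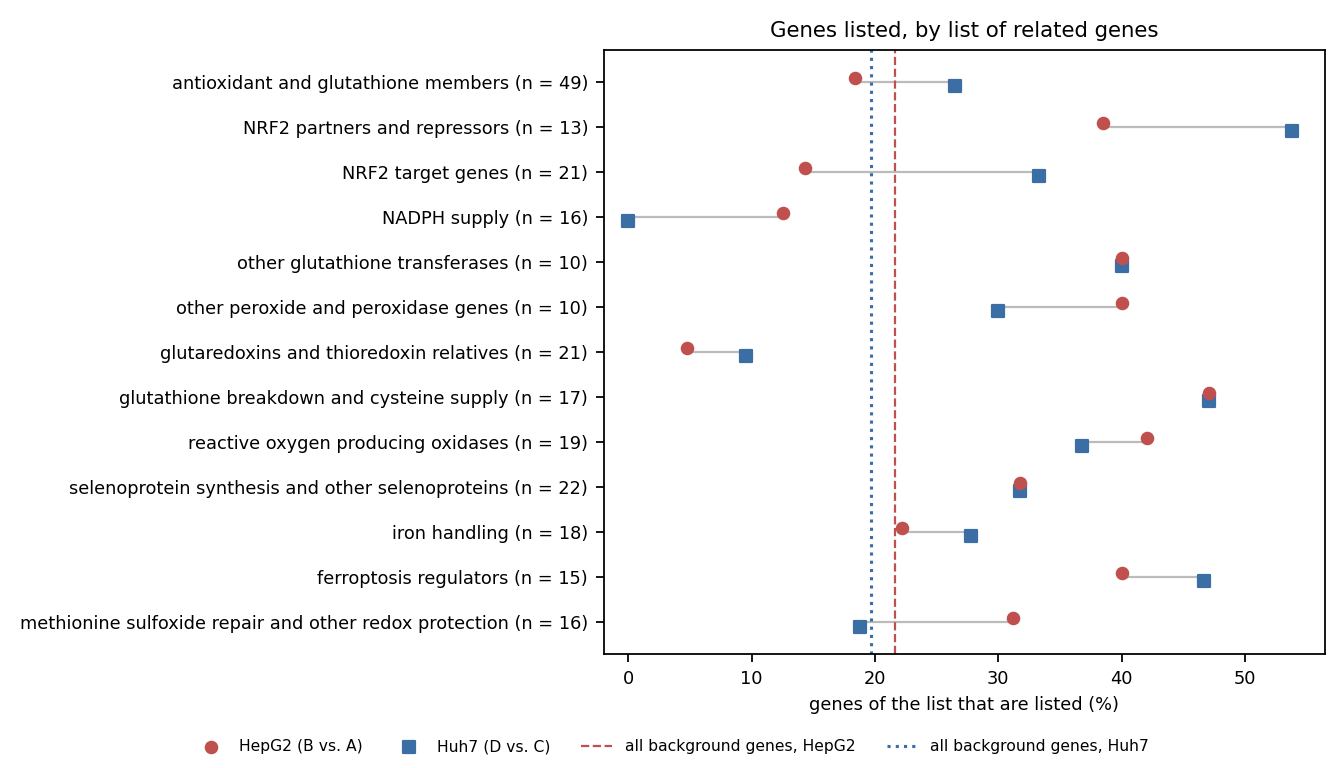
The horizontal axis gives the percentage of each gene list that was listed in HepG2 cells (red circles) and in Huh7 cells (blue squares), with the number of genes in each list beside its name and the 21.6% and 19.7% of all background genes as vertical lines. The 49 members lie at 18.4% and 26.5%, the NRF2 partners and repressors (with relatives of NRF2) at 38.5% and 53.8%, and the NADPH supply at 12.5% and 0%.

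Transcript length was compared because longer transcripts collect more reads and are called more easily. The longest transcript of the members in GENCODE release 29 had a median of 2152 bases, against 3157 bases over 19951 protein-coding genes. It was 2698 bases for the 17 listed members and 1766 bases for the 32 members listed in neither line. The same difference in a smaller size was seen over all protein-coding genes, with 3332 bases for genes listed in HepG2 cells, 3270 bases for genes listed in Huh7 cells and 3079 bases for genes listed in neither. The shortest member transcripts included FTL, with 878 bases, which was listed in both lines, and TXN, with 869 bases, which was listed in neither. The part of length in the listing of the members was not tested.

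**Figure D4:**
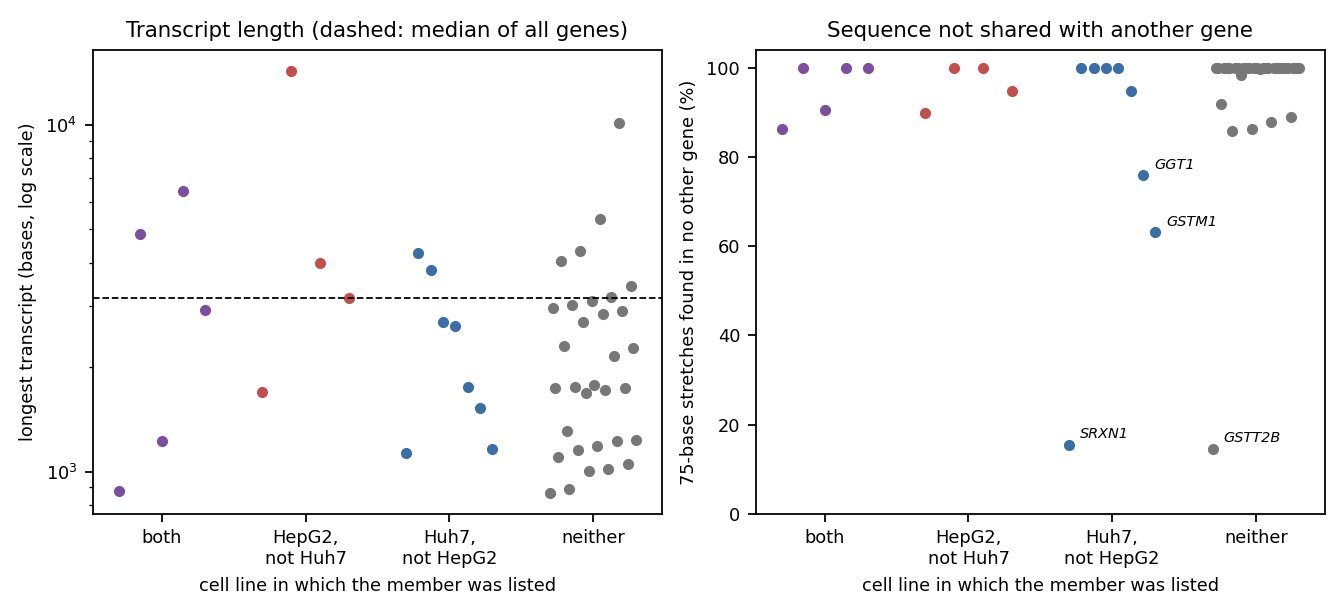
Each point is a member, grouped by the cell line in which it was listed; the left panel gives its longest transcript in bases on a log scale, with the median of all protein-coding genes (3157 bases) dashed, and the right panel gives the percentage of its 75-base stretches that occur in no other gene. SRXN1 (15.4%) and GSTT2B (14.6%) lie lowest in the right panel.

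Reads that fit several genes could move a call from a gene to its copy. Of the 49 members, SRXN1 and GSTT2B had fewer than 50% of their 75-base stretches to themselves, and GSTT2B, a near-copy of GSTT2, was listed in neither line. The name SOD2 belongs to 2 overlapping gene identifiers in GENCODE release 29. In HepG2 cells 1 of them stood in the GO table and both stood in the KEGG table, and in Huh7 cells neither was named.

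The markers of cell identity could be followed as listings and not as levels, so the labelled cell lines could not be checked. Of 8 hepatocyte markers, 3 were listed in HepG2 (37.5%) and 7 in Huh7 cells (87.5%), with AFP, ALB and HNF4A shared. Of 11 markers of fibroblasts, blood and endothelial cells, 9 were listed in HepG2 (81.8%) and 7 in Huh7 cells (63.6%), with CD68, CDH5, HBA1, PECAM1, PTPRC, VIM and VWF shared. The background shares beside both marker lists are 21.6% (B vs. A) and 19.7% (D vs. C). Their part in the listing of the members was not tested.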

How the data were processed

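Total RNA of HepG2 cells (groups A and B) and Huh7 cells (groups C and D), depleted of ribosomal RNA, was sequenced from directional libraries, 1 in each of the 4 groups named by the labels. The submitters' processing notes name Bowtie2 2.2.8, HISAT2, StringTie 1.3.1 and Cuffdiff 2.1.1 without their roles. The paper's methods name Cuffdiff for the differential calls, and its results name another tool. The genome build, the annotation and any use of strand in counting are not given in the sources used here.

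The authors deposited GO and KEGG tables for each comparison, which give numbers of listed and background genes and the gene identifiers. They also hold enrichment p-values by the authors, which were not used. The depth of the libraries was not used here, and no interval was computed.

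The listed genes were the identifiers under any GO term, 4783 for B vs. A and 4369 for D vs. C, of which 4768 and 4360 could be named from GENCODE release 29 and a table of gene symbols. Every member is named, and of each related list the genes listed in both lines, up to 8 in alphabetical order. For the peroxidase and oxidase lists the names are not reported here. Other genes were named after their listing was seen. The members and lists were chosen with earlier results of these data known. Some genes stand in more than 1 related list. A 75-base stretch was counted as unique when no transcript of another gene in GENCODE release 29 held it. Python 3.11.15, numpy 2.4.6 and matplotlib 3.10.9 were used, and the counting was tested on simulated data. The alternatives were KEGG tables, biological process terms alone, members without close copies, and other backgrounds.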

Additional observations from a re-analysis of the deposited data

How the results depend on the processing

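The numbers of members listed in HepG2, in Huh7 and in both lines stayed within 1.5 times the reported 9, 13 and 5 under the other table choices. They were 8, 9 and 4 with the KEGG tables in place of the GO tables, where TXNIP dropped out in both lines and SOD3, SRXN1 and GGT1 in Huh7 cells. They were 9, 13 and 5 with both kinds of table, and with biological process terms alone. Without the 12 members that have near-identical copies, 6 of 37 members were listed in HepG2 and 9 in Huh7 cells, and the number listed in both lines fell from 5 to 3, because FTH1 and FTL were left out. Leaving out SRXN1 and GSTT2B, a choice made after seeing the data, gave 9, 12 and 5 of 47. With the 19951 protein-coding genes as background, 23.9% of all genes were listed in HepG2, 21.9% in Huh7 cells and 11.4% in both. With the 7700 protein-coding genes whose longest transcript lay between the members' quartiles (1229 to 3155 bases), these were 24.2%, 22.4% and 11.7%. With 1 library a group and no levels, neither the direction nor the size of a member's change could be given. No paired analysis across the cell lines was made, since no expression levels were used here.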

Other observations

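The KEGG pathway Cysteine and methionine metabolism held 7 of 38 background genes in HepG2 and 11 in Huh7 cells, and no member stood under it in either line. The KEGG pathway Ferroptosis had no row in either table, although the ferroptosis regulators DHODH, SAT1 and SLC3A2 were listed in both lines. The missing row therefore cannot be read as a lack of listed genes. The Glutathione metabolism pathway named both GGCT and AC005154.5 in both lines, and these gene models overlap by 7768 bases on the same strand. Arachidonic acid metabolism held 20 of 62 background genes in each line, with no member in HepG2 cells and GPX2 and GPX3 in Huh7 cells.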
